A study of Saccharomyces cerevisiae with 18 samples.

Results

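Budding yeast carrying hcm1-3N were compared with yeast carrying hcm1-8E after growth in lithium chloride, with attention to genes that are not on the list of Hcm1 targets. The comparison rests on 6 of the 18 libraries of the series, 3 of hcm1-3N in LiCl (written 3N below) and 3 of hcm1-8E in LiCl (8E), which were chosen by their titles. Of the 6239 genes that were tested, 96 are on the study's list of Hcm1 targets and the other 6143 are described here.

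All strains were haploid MATa derivatives of BY4741 with the alleles his3Δ1 ura3Δ0 leu2Δ0 lys2Δ0 and GFP expressed from the TEF promoter. In each of them the chromosomal HCM1 gene was placed behind the GAL1 promoter with a HIS3MX6 marker, and carried a 3HA tag with a KanMX marker. This copy was shut off by growth in dextrose. The HCM1 allele under study came from a centromeric URA3 plasmid, where the HCM1 promoter drove a protein with a 3V5 tag. In 3N, alanine replaced the phosphorylated residues of an N-terminal degron, a change that stabilizes the protein while leaving the phosphorylation of its transactivation domain regulated. In 8E, the 8 sites of the transactivation domain that are phosphorylated by cyclin-dependent kinase (CDK) carried glutamic acid, which mimics constant phosphorylation. Cultures were asynchronous, grew without uracil in medium with 150 mM LiCl and were collected in log phase after 40 h. The companion cultures, without LiCl, are called control medium. Libraries of the wild-type allele in LiCl (WT) were used only to place the level of a gene relative to 3N and 8E.

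Hcm1 is a forkhead transcription factor that switches on genes for chromosome segregation and cell cycle progression in S phase. CDK activates it by phosphorylating its transactivation domain, and the phosphatase calcineurin removes those phosphates. Lithium is toxic to yeast in part because it inhibits Met22, an enzyme of the sulfate assimilation pathway, and it also activates calcineurin. Amino acid biosynthesis in yeast is controlled by the activator Gcn4, sulfur assimilation by Met4 with its DNA-binding partners Cbf1, Met31 and Met32, inositol and phospholipid synthesis by Ino2 and Ino4, and general stress genes by Msn2 and Msn4. These are the regulators whose gene groups are described below.

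The 6 libraries held 21528235 to 21781082 counted reads each, so that 3 reads corresponded to 0.138 to 0.139 CPM, the reads of a gene per 1000000 counted reads. The a-cell markers STE2, STE6, BAR1, MFA1 and MFA2 were abundant in every library, and the receptor gene STE2 lay at 572 to 797 CPM in 3N and 594 to 765 CPM in 8E. Same-numbered replicates were kept as a block in every fit, and replicate 1 stood apart from replicates 2 and 3 in both groups. Both genes carried by the plasmid differed between the groups. HCM1 was at 217, 221 and 314 CPM in 3N, against 163, 135 and 142 CPM in 8E (log2 difference 0.76 ± 0.13 SE, adjusted p = 0.00193). URA3, the plasmid's selection marker, was at 730, 1166 and 966 CPM in 3N, against 536, 466 and 632 CPM in 8E (0.80 ± 0.15, adjusted p = 0.00292). In control medium the log2 differences of HCM1 and URA3 were 0.04 and -0.03, and neither passed the test. In LiCl, HCM1 did not pass without replicate 3 (adjusted p = 0.0816), nor URA3 without replicate 2 (0.0801) or replicate 3 (0.0718). Neither gene overlapped between the groups in LiCl, and WT exceeded both groups for HCM1 (348 to 471 CPM). The reads of HCM1 do not separate the plasmid copy from the chromosomal one, and the part of this difference in the results that follow was not tested.

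Outside the target list, 524 of 6143 genes (8.53%) passed an adjusted p of 0.05, 219 of them higher in 3N (3.57%) and 305 lower (4.97%). Counts of called members in the lists below are to be read beside these shares. Of the gene lists described, those of Gcn4-type amino acid biosynthesis (26) and sulfur assimilation (16) held the most lower genes, a minority of the 305. The higher genes were spread over many lists, and MF(ALPHA)1 and FMP48 had the largest increases among the named genes. The differences were modest in size, with a median absolute log2 difference of 0.51 among called genes, and 73 genes changed by at least 1 (44 higher, 29 lower). The direction was the same in all 3 replicate pairs for 517 of the 524 genes. The CPM ranges of the 2 groups did not overlap for 373 of them, and 13.1% of all genes outside the list had ranges that did not overlap. The cultures were asynchronous bulk samples, so a smaller share of cells that express a gene and less RNA of it per cell cannot be told apart. The number of calls rested on the replicates used. It was 187 (66 higher, 121 lower) without the replicate block, 283 without 3N replicate 2, 276 without 8E replicate 2 and 309 without 8E replicate 3, and leaving out all libraries of 1 number gave 886, 65 and 160 calls for numbers 1, 2 and 3. Every one of the 524 genes kept its direction in each alternative fit that tested it.

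The upstream sequences of 6 genes that recur below are shown because they carry short motifs of the regulators named above. Each is the window from 400 to 101 bases before the start codon in the RefSeq R64 genome, read 5′ to 3′ on the gene's own strand, with matches on either strand in capitals. HIS4 (chrIII:68434-68733, minus strand) and SNZ1 (chrXIII:458008-458307, plus strand) show the Gcn4 motif TGACTC, and MET10 (chrVI:212912-213211, plus strand) shows the Cbf1 motif CACGTG and the Met31/Met32 motif TGTGGC. INO1 (chrX:136034-136333, minus strand) and OPI3 (chrX:573036-573335, minus strand) show the Ino2/Ino4 core CATGTG, and HSP12 (chrVI:106856-107155, plus strand) shows the stress element AGGGG.
HIS4: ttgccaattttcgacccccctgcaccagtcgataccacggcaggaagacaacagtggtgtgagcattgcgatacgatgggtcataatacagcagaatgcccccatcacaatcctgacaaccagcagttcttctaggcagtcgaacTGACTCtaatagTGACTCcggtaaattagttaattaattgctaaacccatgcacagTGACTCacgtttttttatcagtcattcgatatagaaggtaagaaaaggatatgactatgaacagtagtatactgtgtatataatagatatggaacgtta
SNZ1: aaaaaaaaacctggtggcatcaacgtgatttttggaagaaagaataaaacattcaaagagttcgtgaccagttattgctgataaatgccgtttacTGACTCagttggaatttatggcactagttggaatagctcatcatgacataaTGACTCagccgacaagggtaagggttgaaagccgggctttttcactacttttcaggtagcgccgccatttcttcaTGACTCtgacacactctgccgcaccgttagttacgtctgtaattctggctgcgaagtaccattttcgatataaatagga
MET10: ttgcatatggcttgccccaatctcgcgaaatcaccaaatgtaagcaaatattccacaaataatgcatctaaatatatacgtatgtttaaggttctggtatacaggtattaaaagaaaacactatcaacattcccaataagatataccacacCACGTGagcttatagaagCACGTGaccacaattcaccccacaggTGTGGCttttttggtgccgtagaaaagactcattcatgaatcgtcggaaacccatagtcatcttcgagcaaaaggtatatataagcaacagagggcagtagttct
INO1: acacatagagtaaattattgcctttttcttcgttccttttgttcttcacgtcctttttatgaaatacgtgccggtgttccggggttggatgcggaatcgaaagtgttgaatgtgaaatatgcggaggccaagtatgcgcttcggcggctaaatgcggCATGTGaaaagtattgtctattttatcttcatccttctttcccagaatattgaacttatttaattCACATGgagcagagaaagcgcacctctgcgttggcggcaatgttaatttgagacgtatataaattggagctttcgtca
OPI3: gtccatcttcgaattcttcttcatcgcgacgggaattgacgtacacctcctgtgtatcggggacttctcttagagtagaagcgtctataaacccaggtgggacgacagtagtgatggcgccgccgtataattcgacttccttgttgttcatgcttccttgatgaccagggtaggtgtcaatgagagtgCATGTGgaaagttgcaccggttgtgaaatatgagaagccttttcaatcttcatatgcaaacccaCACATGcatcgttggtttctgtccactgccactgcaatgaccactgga
HSP12: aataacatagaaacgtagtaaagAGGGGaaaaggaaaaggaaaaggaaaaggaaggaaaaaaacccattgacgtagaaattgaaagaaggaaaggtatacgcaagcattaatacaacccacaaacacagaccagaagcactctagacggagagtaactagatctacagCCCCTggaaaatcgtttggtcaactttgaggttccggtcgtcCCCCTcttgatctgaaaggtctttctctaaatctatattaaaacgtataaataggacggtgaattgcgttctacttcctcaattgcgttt
HIS4, SNZ1 and HSP12 each held 3 matches, MET10 held 3 over its 2 motifs, and INO1 and OPI3 held 2 each.

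Windows of this kind were available for 5635 of the tested genes outside the target list. TGACTC stood upstream of 69 of 291 genes lower in 3N (23.7%) and of 9 of 200 genes higher in 3N (4.5%), against 8.73% of all 5635. Of the 492 genes with the motif, 69 were lower (14%) and 9 higher (1.83%), and of the 5143 genes without it 222 were lower (4.32%) and 191 higher (3.71%). AGGGG ran the other way, with 32% of the genes higher in 3N and 19.6% of the genes lower in 3N, against 24% of all. TGTGGC was upstream of 6.5% of the higher and 11.7% of the lower genes (9.1% of all), and CACGTG of 4.5% and 7.22% (4.54% of all). CATGTG was upstream of 11.5% of the higher and 10.7% of the lower genes (9.3% of all). The forkhead motif GTAAACA was upstream of 7.5% of higher and 6.19% of lower genes outside the target list, against 6.14% of all. The Ume6 core GGCGGC was upstream of 7% and 6.87%, against 6.09% of all. Matches of different motifs were counted separately even where they overlapped, and the shares are descriptions of letter matches within the windows, with no test.

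**Figure D1:**
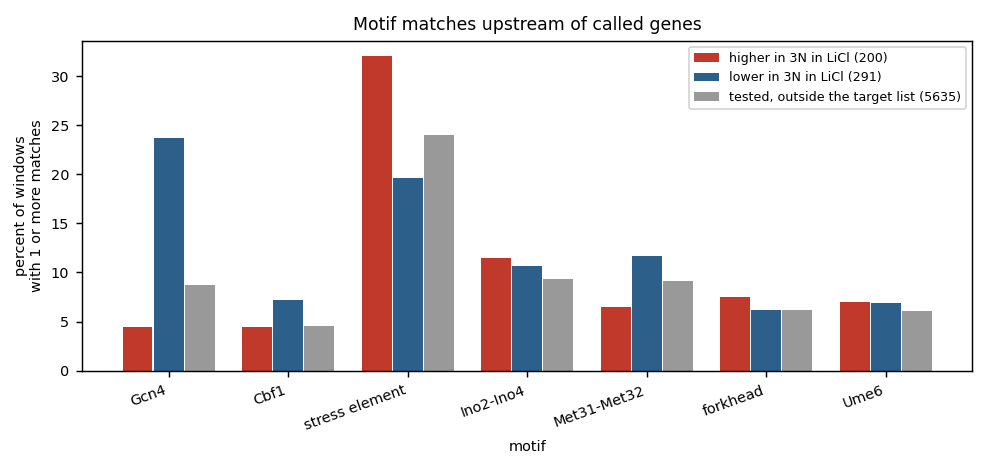
Share of upstream windows (percent) with at least 1 match to each motif on either strand, for genes higher in 3N (200), genes lower in 3N (291) and all tested genes outside the target list (5635). The Gcn4 motif stood upstream of 23.7% of the lower genes and 8.73% of all genes.

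Amino acid biosynthesis gave the most lower genes of any list. Of 62 tested members of a list of Gcn4-type amino acid biosynthesis genes, 26 were lower and 1 was higher, and the list median was a log2 difference of -0.31 (all tested genes, -0.02). The lower members included genes of the aromatic branch (ARO1, ARO3, ARO4, TRP3, TRP4, TRP5, TYR1), the lysine branch (LYS1, LYS5, LYS20), the arginine branch (ARG1, ARG4, ARG7, ORT1) and the leucine and isoleucine branch (LEU4, ILV6, BAT1, BAT2). TRP4, the anthranilate phosphoribosyltransferase of tryptophan synthesis, was at 172, 150 and 173 CPM in 3N, against 332, 273 and 271 CPM in 8E (-0.82 ± 0.10, adjusted p = 0.000309). ARO1, the enzyme that carries out most steps of the shikimate pathway, was at 199, 223 and 229 CPM in 3N, against 333, 339 and 345 CPM in 8E (-0.65 ± 0.08, adjusted p = 0.000309). ASN1, asparagine synthetase, was at 639, 570 and 490 CPM in 3N, against 1244, 859 and 930 CPM in 8E (-0.83 ± 0.11, adjusted p = 0.00036). Every 3N library lay below every 8E library for these 3 genes. The exception in the list was CHA1, which breaks down serine and threonine instead of making an amino acid, with 80.7, 39.7 and 46.1 CPM in 3N, against 60.6, 14.6 and 20.4 CPM in 8E (0.94 ± 0.20, adjusted p = 0.0108). The CHA1 ranges overlapped, and the difference had the same sign within each pair.

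Of the 27 called members of this list, 17 carried TGACTC in their upstream window. Here and in the lists below, motifs were counted among called members only, so these counts cannot tie a motif to the difference. The activator gene GCN4 had 1091, 1067 and 1212 CPM in 3N, against 1474, 1408 and 1201 CPM in 8E, a log2 difference of -0.27 ± 0.10 that did not pass the test (adjusted p = 0.121). Its protein level is known to be set largely by translation, which mRNA counts do not show. The count of lower members was 18 without the replicate block, 6 without replicate 2, 40 without 3N replicate 3 and 44 by limma on TPM.

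Histidine biosynthesis followed the same direction, with 6 of 9 members lower, 0 higher and a median of -0.50. HIS4, which catalyzes several steps of the pathway (chrIII:65934-68333), was at 418, 636 and 577 CPM in 3N, against 881, 1131 and 1252 CPM in 8E (-1.0 ± 0.15, adjusted p = 0.000729). Its highest 3N library lay below its lowest 8E library. HIS7, HIS5, HIS1 and HIS6 were lower by log2 differences of -0.54, -0.54, -0.50 and -0.38. HIS3 was also lower (-0.71). All strains carry the his3Δ1 allele and a HIS3MX6 marker, and the source of the HIS3 reads was not tested. TGACTC lay upstream of 5 of the 6 called members, with 3 matches in the window of HIS4 printed above. The count was 3 without 3N replicate 2 and 2 without replicate 2 of all groups.

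Purine synthesis, which shares an intermediate with histidine synthesis, had 5 of 29 members lower and 0 higher (median -0.16). ADE3, the enzyme that supplies one-carbon units on folate, was at 280, 327 and 411 CPM in 3N, against 521, 605 and 496 CPM in 8E (-0.68 ± 0.11, adjusted p = 0.00136). The groups did not overlap for ADE3. ADE12, ADE8, the glycine cleavage gene GCV1 and the purine permease gene FCY2 were lower by log2 differences between -0.34 and -0.47. Of these 5 genes, 4 had TGACTC upstream. The count was 2 without the replicate block, 0 without replicate 2 and 10 by limma on TPM.

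SNZ1 and SNO1, a divergently transcribed pair that makes vitamin B6, were lower by more than any called histidine or purine gene. SNZ1 was at 218, 240 and 257 CPM in 3N, against 629, 620 and 526 CPM in 8E (-1.29 ± 0.19, adjusted p = 0.000901). SNO1 was at 46.6, 46.3 and 44.5 CPM in 3N, against 126, 123 and 110 CPM in 8E (-1.38 ± 0.20, adjusted p = 0.000987). Both genes were below 0.5 of their 8E level in every pair, and WT lay between the groups for both. Over the 27 tested SNO, SNZ and thiamine genes, 3 were lower and 1 was higher (median 0.15): the thiamine transporter gene THI72 was the other lower one (-0.59), and SNO4, which has 2 stretches of near-identical sequence elsewhere in the genome, was the higher one (0.91).

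Sulfur assimilation and methionine genes were lower in 3N in 16 of 40 tested members, with 0 higher and a median of -0.33. The 16 include ISC1 (-0.42), a sphingolipid phospholipase gene that is on the list but is not part of these pathways. SUL1, a high-affinity sulfate permease (chrII:789235-791814), was at 7.69, 7.22 and 7.89 CPM in 3N, against 26.4, 39.0 and 19 CPM in 8E (-1.87 ± 0.27, adjusted p = 0.000808). MMP1, the S-methylmethionine permease, was at 30.8, 24.9 and 27.3 CPM in 3N, against 60.2, 137 and 68.1 CPM in 8E (-1.60 ± 0.28, adjusted p = 0.00459). MET10, a subunit of sulfite reductase, was at 71.7, 66.1 and 74.4 CPM in 3N, against 124, 135 and 102 CPM in 8E (-0.76 ± 0.11, adjusted p = 0.00052). The 3N libraries lay close together for these 3 genes, and the 8E libraries were all higher and more spread out, with replicate 2 highest. The other lower members ran from transport to methionine: MET16 (-0.63) reduces activated sulfate, MET17 (-0.75) takes up sulfide, STR2 and STR3 (-0.70 and -1.11) interconvert cysteine and methionine precursors, MET2 (-1.18) activates homoserine, MET12 and MET13 (-0.29 and -0.50) make methyl-folate, and MHT1 (-1.38) and SAM3 (-0.51) recycle or import methyl donors.

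MET22, whose product is the lithium-sensitive phosphatase of this pathway, was itself lower in 3N. It was at 107, 102 and 119 CPM, against 194, 139 and 133 CPM in 8E (-0.50 ± 0.11, adjusted p = 0.0119). MET22 did not pass without 3N replicate 1, without 3N replicate 2 or in the 9 LiCl libraries alone. Nor did it pass without replicate 1 or replicate 2 of all groups (adjusted p = 0.222 for replicate 2). The regulators MET32 and MET28 were lower as well, MET32 at 2.02 to 2.88 CPM in 3N and 3.36 to 7.56 CPM in 8E (-1.01 ± 0.26, adjusted p = 0.0264) and MET28 by -0.60. The activator gene MET4 gave -0.32 ± 0.10, just beyond the threshold (adjusted p = 0.052). Of the 16 called members, 11 had the Met31/Met32 motif upstream and 7 the Cbf1 motif. The count of lower members was 8 without the replicate block, 10 without 8E replicate 2, and 2 and 7 without replicates 2 and 3 of all groups, and the calls of MET2 (adjusted p = 0.137) and STR3 (0.508) did not hold without the block.

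**Figure D2:**
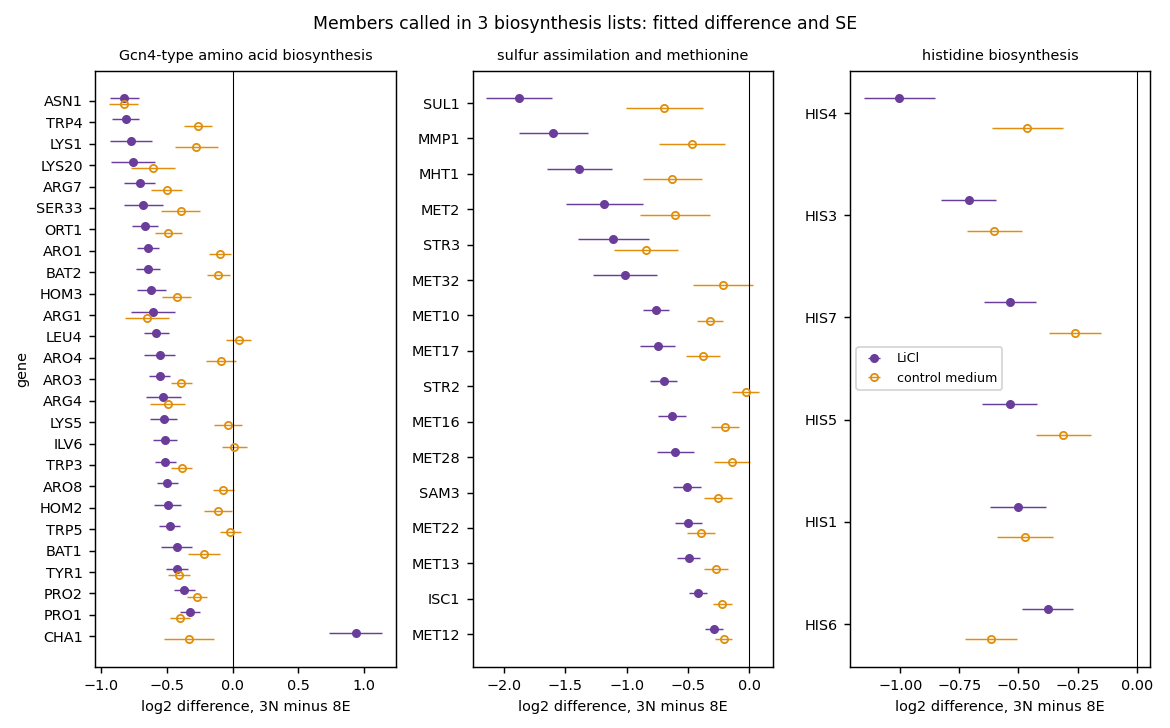
Fitted log2 difference (3N minus 8E) with its SE for called members of the Gcn4-type amino acid, sulfur and histidine lists, in LiCl (filled) and in control medium (open). All members drawn but CHA1 lie below 0 in LiCl, and SUL1 is the farthest at -1.87.

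Of 12 genes that break down aromatic and branched amino acids, 4 were lower and 0 higher, with a median of -0.24. BAT1 and BAT2, counted above in the Gcn4-type list, were among the 4. ARO10, the decarboxylase of the Ehrlich pathway, was at 7.13, 5.36 and 6.16 CPM in 3N, against 15.4, 27.1 and 13.4 CPM in 8E (-1.55 ± 0.21, adjusted p = 0.000434). ARO9, the transaminase that starts the breakdown of aromatic amino acids, was at 16.5, 17.2 and 18.9 CPM in 3N, against 32.5, 45.7 and 30.6 CPM in 8E (-1.04 ± 0.14, adjusted p = 0.000434). The groups did not overlap for either gene. WT lay near 3N for ARO9, with 17.7 to 23.0 CPM. The arginase gene CAR1 (-0.83) was lower as well, among 5 lower and 4 higher members of 48 genes of nitrogen catabolism and amino acid uptake, a list with 1 lower member without the block and 2 without 3N replicate 2, 8E replicate 2 or 8E replicate 3. On the higher side of that list stood PUT1, proline oxidase, with 15.9, 59.2 and 52.2 CPM in 3N, against 8.51, 22.6 and 19.4 CPM in 8E (1.27 ± 0.17, adjusted p = 0.00036, or 0.275 without the block), and the oligopeptide transporter gene OPT2 (1.39 ± 0.15, adjusted p = 0.000203). PUT1 was highest in replicate 2 of both groups, and its ranges overlapped across replicates.

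**Figure D3:**
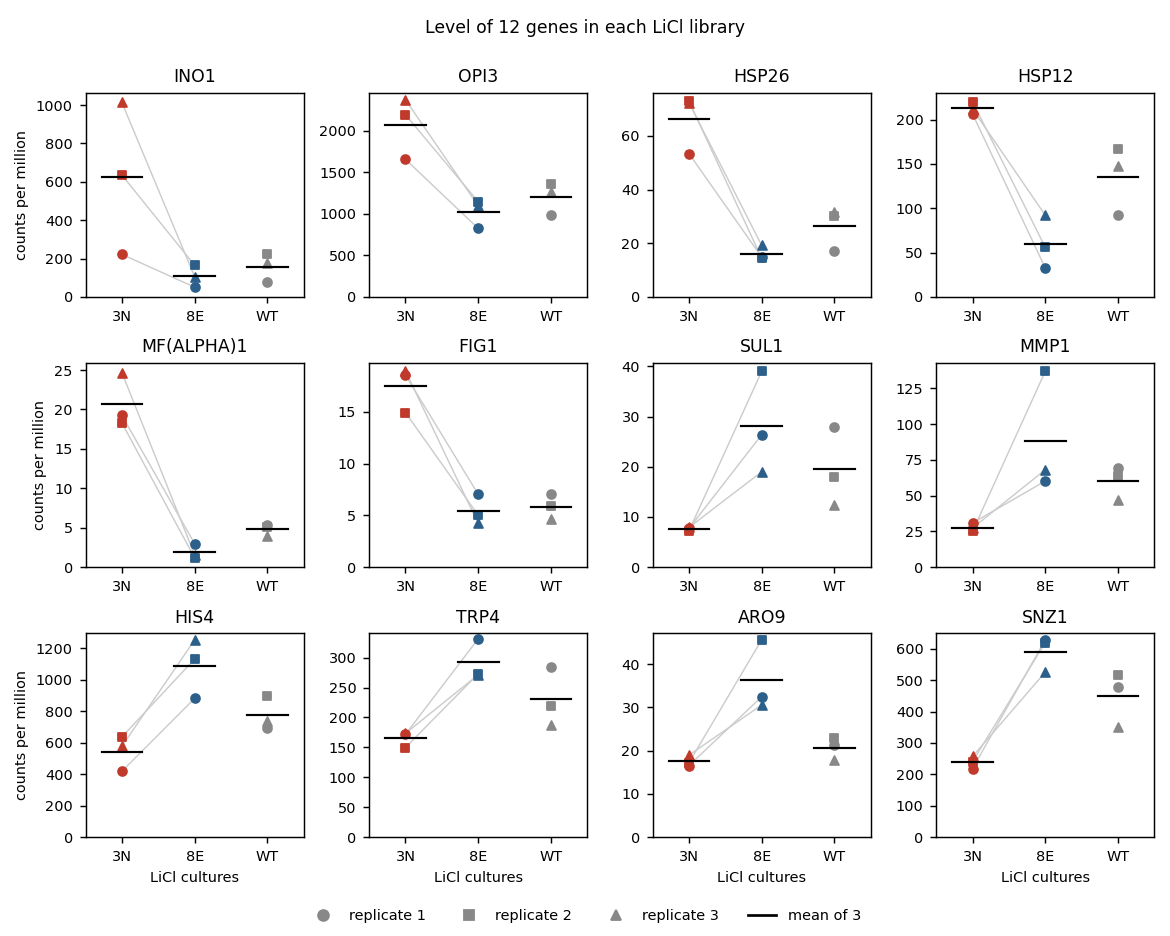
Level of 12 genes (CPM) in each library of 3N, 8E and WT in LiCl. Symbols mark the replicate number, grey lines join same-numbered 3N and 8E libraries and black bars are means of 3. All 3N points lie above all 8E points for INO1, OPI3, HSP26, HSP12, MF(ALPHA)1 and FIG1, and below them for the other 6 genes.

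In the list of TCA cycle, glyoxylate, acetate and gluconeogenesis genes, 9 of 45 were lower and 0 higher (median -0.09). PYC2, pyruvate carboxylase, was at 223, 273 and 265 CPM in 3N, against 354, 399 and 398 CPM in 8E (-0.60 ± 0.08, adjusted p = 0.000448). The other called members were PYC1 (-0.55), the oxodicarboxylate carriers ODC1 and ODC2 (-0.48 and -0.35), the acetate and ammonium exporter gene ATO3 (-0.92), the carnitine acetyltransferases YAT1 and YAT2 (-0.70 and -0.75), IDP1 (-0.53) and ICL1 (-0.47). TGACTC lay upstream of 6 of these 9 genes, ATO3 and PYC2 included. Without replicates 2 and 3 of all groups the count was 1 and 3. Without the replicate block it was 4, and ATO3 (adjusted p = 0.068), YAT2 (0.08) and ODC1 (0.0568) no longer passed. Calls among glucose genes went both ways, beside shares of 3.57% higher and 4.97% lower over all genes outside the target list. Of 32 glycolysis and fermentation genes 2 were higher (ADH1, 0.32, and TYE7, 0.81) and 2 lower (ADH5, -1.04, and HXK2), and of 29 hexose transporter and glucose sensor genes 3 were higher (HXT14, GAL2 and HXT5) and 2 lower (HXT2 and HXK2). HXK2, the main hexokinase, was lower by -0.67 ± 0.13 (adjusted p = 0.00414, or 0.222 without replicate 2). Also lower was ZWF1, the first enzyme of the pentose phosphate pathway, at 191, 267 and 253 CPM in 3N, against 280, 531 and 447 CPM in 8E (-0.80 ± 0.10, adjusted p = 0.00031, or 0.063 without the block).

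Of 50 oxidative defence and thiol redox genes, 7 were lower and 1, the superoxide dismutase gene SOD1, was higher (0.34). The transcription factor gene YAP1 was at 131, 117 and 107 CPM in 3N, against 156, 179 and 182 CPM in 8E (-0.55 ± 0.09, adjusted p = 0.00174). ATR1, an efflux pump gene, was lower by -1.01, and 3 aryl-alcohol dehydrogenase entries, AAD16, AAD6 and AAD4, by -1.25, -1.11 and -0.82. AAD16 was at 23.1, 18.4 and 21.8 CPM in 3N, against 62.3, 55.1 and 35.4 CPM in 8E. Other genes of the family gave values near 0 (AAD14, -0.00; AAD15, 0.07). RefSeq annotates AAD6 as a pseudogene, and 0 near-identical stretches elsewhere in the genome were found for it (at least 95% identity over 100 bases). AAD16 (YFL057C), which neighbours AAD6 (YFL056C) by systematic name, has no entry in RefSeq. The AAD16 and AAD6 values may therefore not come from separate genes, although both are counted among the 7. Without replicate 2 the lower count was 2, and by limma on TPM it was 15.

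The proteasome list had 10 of 41 members lower and 1 higher, with a median of -0.24. ECM29, which holds the proteasome's core and cap together, was at 48.3, 48.9 and 44.5 CPM in 3N, against 61.5, 83.8 and 85.7 CPM in 8E (-0.70 ± 0.10, adjusted p = 0.00066). Cap subunit genes RPN1 (-0.42), RPN2 (-0.32), RPN6 (-0.38), RPN8 (-0.36), RPN9 (-0.31) and RPN12 (-0.37), the ATPase gene RPT3 (-0.36) and the core genes PRE10 (-0.37) and PUP3 (-0.34) made up the rest. The differences were small, and 38 of the 41 members had a value below 0. The higher member was UBC4, a ubiquitin-conjugating enzyme gene (0.31), and RPN4, the activator of proteasome genes, was at 0.23 ± 0.09 (adjusted p = 0.142). Without the replicate block 4 members were lower, without replicate 2 of all groups 0, and by limma on TPM 30. With 1 library left out the count was 18 without 8E replicate 1, 5 without 3N replicate 2, and 4 and 3 without 8E replicates 2 and 3.

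INO1 and OPI3 stood out among the genes higher in 3N. INO1, which makes inositol phosphate from glucose 6-phosphate (chrX:134332-135933), was at 222, 636 and 1014 CPM in 3N, against 50.9, 165 and 106 CPM in 8E (2.41 ± 0.49, adjusted p = 0.0135). OPI3, a methyltransferase of phosphatidylcholine synthesis (chrX:572315-572935), was at 1659, 2196 and 2377 CPM in 3N, against 826, 1148 and 1098 CPM in 8E (1.02 ± 0.11, adjusted p = 0.000203). Neither gene overlapped between the groups, and replicate 1 was the lowest library of both groups for both genes. Without the block the adjusted p was 0.22 for INO1 and 0.0808 for OPI3, and INO1 also failed without replicate 2 (0.267) and replicate 3 (0.16). The other members did not form a common shift, with 3 of 34 higher (ELO2, 0.39, was the other), 1 lower (INM1, -0.37) and a median of 0.12. The methyltransferase gene CHO2, which acts just before OPI3, was at -0.04, the serine branch gene CHO1 at 0.06, and the inositol transporter gene ITR1 at 0.21. INO2 had 87.6, 61.2 and 64.3 CPM in 3N, against 92.3, 24.7 and 19.8 CPM in 8E, which did not pass the test (0.83 ± 0.41, adjusted p = 0.245).

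Genes of trehalose, glycogen and the general stress response were higher in 7 of 58 members and lower in 2, with a median of 0.22. HSP26, a small heat shock protein, was at 53.4, 72.9 and 72.3 CPM in 3N, against 14.8, 14.4 and 19.2 CPM in 8E (2.02 ± 0.25, adjusted p = 0.00052). HSP12, a membrane-associated stress protein (chrVI:107256-107585), was at 206, 220 and 212 CPM in 3N, against 32.7, 55.9 and 92.1 CPM in 8E (1.94 ± 0.31, adjusted p = 0.00254). The 3N and 8E libraries were well apart for both, and the WT mean lay between them. WT spanned 17.2 to 31.7 CPM for HSP26 and 92.0 to 167 CPM for HSP12, with its lowest library inside the 8E range for both. YGP1, a secreted glycoprotein (1.17 ± 0.18, adjusted p = 0.00089), and the phosphatase gene PHM8 (1.00 ± 0.16, adjusted p = 0.00119) were the next members, but neither passed without the block (0.171 and 0.288), and WT exceeded 3N for YGP1. The lower members were GRE2 (-0.50) and HUG1 (-0.76), a gene of the DNA damage response. AGGGG was upstream of 4 of the 9 called members, and MSN2 and MSN4 were at 0.08 and 0.03. Among 41 heat shock protein and chaperone genes 1 was called, SSA4, an inducible Hsp70 (1.37 ± 0.24, adjusted p = 0.00444, or 0.188 without the block), and 33 had a value above 0. The count of higher stress genes was 2 without the block, 2 and 3 without replicates 2 and 3 of all groups, and 13 without replicate 1.

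Biotin genes were picked out after their values were seen. BIO2, biotin synthase, was at 320, 333 and 272 CPM in 3N, against 165, 147 and 120 CPM in 8E (1.10 ± 0.28, adjusted p = 0.0362), and BIO4 at 43.6, 85.1 and 68.5 CPM in 3N, against 17.0, 13.8 and 16.8 CPM in 8E (1.99 ± 0.52, adjusted p = 0.0411). BIO3, BIO5 and the biotin transporter gene VHT1 had log2 differences of 1.78, 1.59 and 0.73 that did not pass the test (adjusted p = 0.093, 0.149 and 0.0773). The ranges did not overlap between the groups for any of the 5 genes, which was also so for 13.1% of all genes outside the target list. BIO4 did not pass without the block (adjusted p = 0.0579), and neither BIO2 nor BIO4 passed with replicate 2 or replicate 3 left out.

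FMP48, a kinase-like gene of unknown function, had the largest increase after MF(ALPHA)1 among the named genes, at 40.3, 155 and 231 CPM in 3N, against 13.5, 23.6 and 28.9 CPM in 8E (2.52 ± 0.42, adjusted p = 0.00458). WT spanned 24.3 to 119 CPM for this gene and overlapped both groups. FMP48 did not pass without replicate 2 (adjusted p = 0.214) or replicate 3 (0.0986) of all groups. YPT53, a Rab GTPase gene of the endosome (1.47, adjusted p = 0.0097), and FMP45 (1.03, adjusted p = 0.0476) were also among the largest, but replicate 1 of 3N lay within the 8E range for both, and neither passed without the block (0.419 and 0.497).

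At the cell surface, CWP2, a major mannoprotein of the cell wall (chrXI:259253-259531), was among the most abundant transcripts that changed, at 6616, 8785 and 9317 CPM in 3N, against 3102, 3849 and 3920 CPM in 8E (1.18 ± 0.14, adjusted p = 0.000203). SCW4, a cell wall glucanase gene, was at 1457, 1623 and 1768 CPM in 3N, against 1020, 1050 and 1130 CPM in 8E (0.60 ± 0.08, adjusted p = 0.000344). Both were clear of the 8E range in every 3N library. Across the 70 cell wall genes the calls went both ways, 6 higher and 5 lower, with a median of -0.03. Without the block 2 were higher and 0 lower, the lower count was 1 without replicate 2 of 3N or of 8E and 12 by limma on TPM, and without replicate 2 of all groups 2 were higher and 0 lower. The lower ones included SLT2, the MAP kinase of the cell wall integrity pathway (-0.63 ± 0.13, adjusted p = 0.0079, or 0.0902 without the block), and the chitin synthase gene CHS3 (-0.40). PRM5, which that pathway induces, was at 74.2, 76.6 and 71.9 CPM in 3N, against 126, 219 and 127 CPM in 8E (-1.07 ± 0.16, adjusted p = 0.000729).

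Mating-type and meiotic genes were measured as checks on the cells. MF(ALPHA)1 (YPL187W, chrXVI:193648-194145), which encodes the alpha-factor precursor and is normally silent in a cells, had the largest difference of all named genes, at 19.2, 18.3 and 24.7 CPM in 3N, against 2.96, 1.15 and 1.54 CPM in 8E (3.44 ± 0.39, adjusted p = 0.000309). STE3, the a-factor receptor of alpha cells, was at 11.7, 11.9 and 17.6 CPM in 3N, against 7.21, 7.92 and 7.34 CPM in 8E (0.86 ± 0.14, adjusted p = 0.00113). The other 2 alpha-cell markers, MF(ALPHA)2 and SAG1, gave 1.05 and 0.13 and did not pass (adjusted p = 0.0758 and 0.425). The summed level of the 4 markers was 73.5 to 95.8 CPM in 3N and 49.4 to 56.5 CPM in 8E, far below STE2 alone. Among 41 pheromone response and a-cell genes, 6 were higher and 3 lower, and the higher count was 3 without the block, 2 without 3N replicate 2, 3 without 3N replicate 3 or 8E replicate 3, and 2 without replicate 2 or replicate 3 of all groups. FIG1, a membrane protein of mating, was at 18.6, 14.9 and 18.9 CPM in 3N, against 7.03, 5.0 and 4.22 CPM in 8E (1.70 ± 0.17, adjusted p = 0.000148). The a-factor genes MFA1 and MFA2 (0.57 and 0.48) and the agglutinin genes AGA1 and AGA2 (0.50 and 0.76) were higher, while the a-cell genes STE2, STE6 and BAR1 did not pass. Whether cells of another mating type were present was not tested.

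Of 45 meiosis and sporulation markers, 10 were higher and 2 lower, with a median of 0.25 and a summed level of 394 to 419 CPM in 3N and 353 to 366 CPM in 8E. None of the 10 exceeded 18.3 CPM in any of the 6 libraries. SPO11, the meiotic double-strand break nuclease, was at 8.51, 9.40 and 10.5 CPM in 3N, against 4.43, 5.40 and 4.62 CPM in 8E (0.98 ± 0.11, adjusted p = 0.000203). CDA1, a chitin deacetylase of the spore wall, was at 9.97, 10.9 and 9.48 CPM in 3N, against 3.58, 5.04 and 3.91 CPM in 8E (1.28 ± 0.15, adjusted p = 0.000203), and SPR3, a septin of sporulation, was higher by 1.61. HOP1, of the meiotic chromosome axis, was higher by 0.89 (adjusted p = 0.00036, 0.089 without the block). The meiotic regulators IME2 and NDT80 and the recombinase gene DMC1 had values of -0.10, 0.18 and 0.20 and did not pass. ZIP1 (-0.45) and SPO20 (-0.64) were the lower members. The higher count was 5 without the block, 5 without 3N replicate 2, 5 and 6 without 8E replicates 2 and 3, and 3 and 5 without replicates 2 and 3 of all groups.

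Cytosolic ribosomal protein genes moved by little and nearly all in 1 direction, with 134 of 138 above 0 and a median of 0.19, while 6 were called higher and 1 lower. The share called higher was 4.35%, near the 3.57% over all genes outside the target list. RPS30A was at 860, 944 and 840 CPM in 3N, against 687, 664 and 662 CPM in 8E (0.39 ± 0.09, adjusted p = 0.012). It has 1 stretch of near-identical sequence elsewhere in the genome, and did not pass without replicate 2 (adjusted p = 0.31) or replicate 3 (0.0577). RPS9A, the lower one, was at 95.4, 49.8 and 50.3 CPM in 3N, against 136, 83.1 and 67.5 CPM in 8E (-0.56 ± 0.11, adjusted p = 0.0037), 1 of 4 members below 0, and did not pass without the block. The number of higher members varied with the libraries used, being 79 without replicate 1 and 0 without replicate 2 or replicate 3, and 71 at most with 1 library left out. In control medium the median of this list was -0.15, with 0 higher and 7 lower. Ribosome biogenesis genes had a median of -0.00 and no calls among 130 in LiCl. Nuclear genes of oxidative phosphorylation were higher in 7 of 52 (13.5%, against 3.57% over all genes) and lower in 2 (3.85%, against 4.97%). The higher ones were led by the small ATP synthase subunit genes ATP19 (0.54) and ATP18 (0.40). The cytochrome oxidase genes COX4 (0.50, with replicate pair 2 at -0.02) and COX8 (0.45) came next. The higher count was 0 without the block, 1 without 3N replicate 3 or 8E replicate 3, 2 without 3N replicate 1 and 3 without 8E replicate 1.

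Gene length moved with the difference. Among the 5741 genes with a known length, split into 5 bins of nearly equal size, the median log2 difference was 0.06 in the shortest bin, with 74 genes called higher and 19 lower, and it was -0.08 in the longest bin, with 18 higher and 70 lower. The median annotated gene length was 771 bases for ribosomal protein genes, 475 for oxidative phosphorylation genes and 867 for proteasome genes, against 1225 for all tested genes. With the length trend removed from each library, an alternative chosen after the data were seen, the calls were 5 higher of ribosomal proteins, 6 higher of oxidative phosphorylation genes, 12 lower of proteasome genes, 25 lower of Gcn4-type genes and 15 lower of sulfur genes.

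Histone genes outside the target list were higher in 3 of 7 members with 0 lower, and all 7 values were above 0 (median 0.39). HTA2 was at 434, 487 and 435 CPM in 3N, against 322, 349 and 344 CPM in 8E (0.42 ± 0.07, adjusted p = 0.00235). HHT1 and HHF1, a divergent pair for histones H3 and H4, were higher by 0.48 and 0.42, whereas the other pair, HHT2 and HHF2, gave 0.15 and 0.08. HHF1 has a stretch of near-identical sequence elsewhere in the genome, so its reads cannot be assigned with full certainty. Of the 7 histone genes, 3 were still higher without the block, but 0 without replicate 2 and 1 without replicate 3 of all groups. With 1 library left out the histone count ran from 1 to 4. Other cell cycle lists showed few calls. In the list of DNA replication and cohesion genes, 5 of 59 were lower, among them the recombination gene RAD54 (-0.57) and the checkpoint kinase gene RAD53 (-0.52), and ORC1 was higher (0.40). The lower count was 2 without the block, 3 without 3N replicate 2, 8E replicate 2 or 8E replicate 3, 0 without replicate 2 of all groups and 13 by limma on TPM. Spindle and kinetochore genes outside the target list had 2 higher (DAD3 and DAD4) and 1 lower (MIF2) of 55. These shares of 3.64% and 1.82% were near or below those over all genes (3.57% and 4.97%). The cyclins CLB1 and CLN1 were higher by 0.58 each, with overlapping ranges and a CLN1 difference of 0.05 in pair 1. None of these spindle and cyclin calls held without the block (adjusted p = 0.406 for CLB1 and 0.118 for CLN1). Neither cyclin passed without replicate 2 or replicate 3 of all groups.

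Ion transport and calcineurin genes, which respond to lithium, did not shift as groups. In the list of sodium, lithium and potassium transport genes, 1 of 25 was higher, the plasma membrane proton pump gene PMA1 (0.41 ± 0.09, adjusted p = 0.00983), and 2 were lower, MET22 and SIS2 (-0.40). ENA1, the sodium and lithium export pump gene, was at 34.3, 45.8 and 49.5 CPM in 3N, against 47.5, 161 and 58.5 CPM in 8E, with overlapping ranges and no call (-0.97 ± 0.37, adjusted p = 0.133). The calcineurin and calcium list had 2 higher, FIG1 and GDT1, and 2 lower, the calcium exchanger gene VCX1 (-0.33) and ECM7 (-0.34), of 27. Polyamine and drug efflux genes were higher in 5 of 23 with 0 lower, QDR1 (0.63), PDR15 (0.42), TPO4 (0.72), RSB1 (1.00) and TPO5 (0.32), and in 1 of 23 without the block. Metal uptake genes were lower in 7 of 50 and higher in 3, with ZPS1, a zinc-responsive gene, at 94.0, 85.9 and 79.9 CPM in 3N, against 226, 195 and 140 CPM in 8E (-1.11 ± 0.25, adjusted p = 0.0182). The lower count was 2 without the block, 4 without 3N replicate 2, 2 without 8E replicate 2, 0 without replicate 2 of all groups and 16 by limma on TPM, and ZPS1 passed in 3 of the 9 fits that left libraries out.

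**Figure D4:**
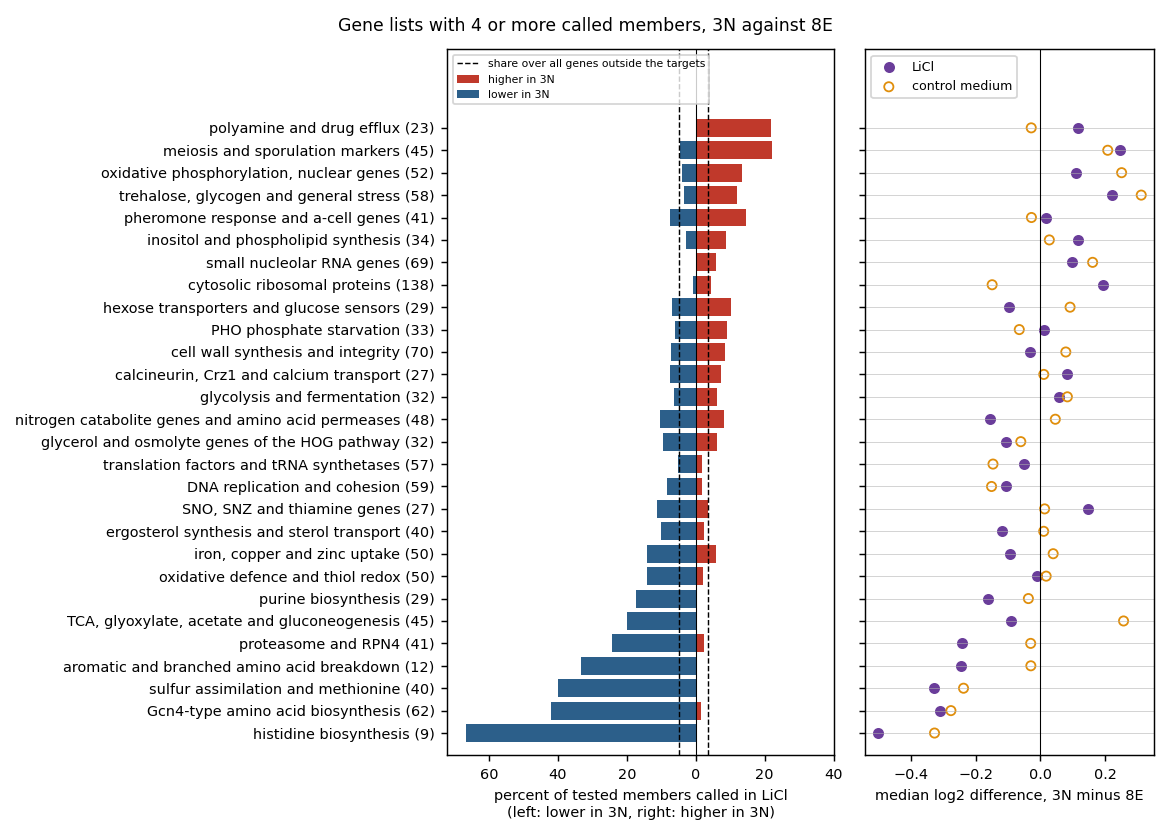
Left, percent of the tested members (number in brackets) of each list with 4 or more called members that were called higher (red) or lower (blue) in 3N in LiCl, with dashed lines at the shares over all genes outside the target list (3.57% and 4.97%). Right, the list's median log2 difference, 3N minus 8E, in LiCl (filled) and control medium (open). Histidine (6 of 9), Gcn4-type (26 of 62) and sulfur genes (16 of 40) had the largest lower shares.

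WT lay between 3N and 8E for most called genes. Its mean level was between the 2 group means for 174 of the 219 higher genes and 279 of the 305 lower genes, 86.5% of all calls, against 45.0% of the genes not called. It was nearer to 8E for 132 of the higher and 222 of the lower genes, and nearer to 3N for 87 and 83. Among higher genes WT exceeded both groups for 16 and was below both for 29, and among lower genes for 23 and 3. Because 3N and 8E means were used both to call genes and to place WT, a mean between them is easier to reach for called genes, and these counts are descriptions with no test.

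The same strains were compared in control medium to ask which differences were also there without LiCl. In control medium 229 genes outside the target list were called (3.73%), 101 higher in 3N (1.64%) and 128 lower (2.08%), and 68 genes were called the same way in both media, 13.0% of the LiCl calls and 29.7% of the control calls. No gene was called in opposite directions. Of the 524 LiCl calls, 424 had the same sign in control medium. HSP26 (1.32), HSP12 (1.77), MF(ALPHA)1 (2.10), OPT2 (1.35) and CDA1 (1.15) were higher in 3N in both media, and ASN1 (-0.83) was lower in both. FMP48 (0.25), PUT1 (0.17), ARO10 (-0.29) and ZPS1 (-0.03) had control values that did not pass. The Gcn4-type list had 11 lower and 0 higher in control medium (median -0.28), and the sulfur list had 1 lower (median -0.24). Histidine genes had 4 lower and 0 higher there (median -0.33). The general stress list had 7 higher and 0 lower in control medium (median 0.31), and the meiosis list 5 and 0 (median 0.21). Cell wall genes had 7 higher and 2 lower (median 0.08). The TCA list, with lower calls only in LiCl, had 4 higher and 1 lower (median 0.26). The control count fell to 4 without the replicate block and ran between 0 and 698 when libraries were left out.

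The difference between the media was tested directly, by subtracting the 3N to 8E difference without LiCl from the one with LiCl. It passed for 12 genes outside the target list (0.195%), 10 of them called in LiCl, and 1054 genes had an unadjusted p under 0.05. ARO9 was lower by -1.04 in LiCl and at 0.25 in control medium, a difference of -1.29 (adjusted p = 0.0389). AAD16 and AAD6, at -1.25 and -1.11 in LiCl and 0.14 and 0.04 in control medium, differed between media by -1.40 and -1.15 (adjusted p = 0.0367 and 0.0421). FIG1, at 1.70 in LiCl and 0.40 in control medium, differed by 1.30 (adjusted p = 0.0421), and SPO11, at 0.98 and 0.14, by 0.83 (adjusted p = 0.0421). ZWF1, at -0.80 and 0.08, differed by -0.88 (adjusted p = 0.0389). All these p-values lie close to the threshold, no gene passed without the replicate block (0 calls) and between 0 and 602 passed when libraries were left out. For the other genes, a call in LiCl beside none in control medium does not show that the media differ.

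**Figure D5:**
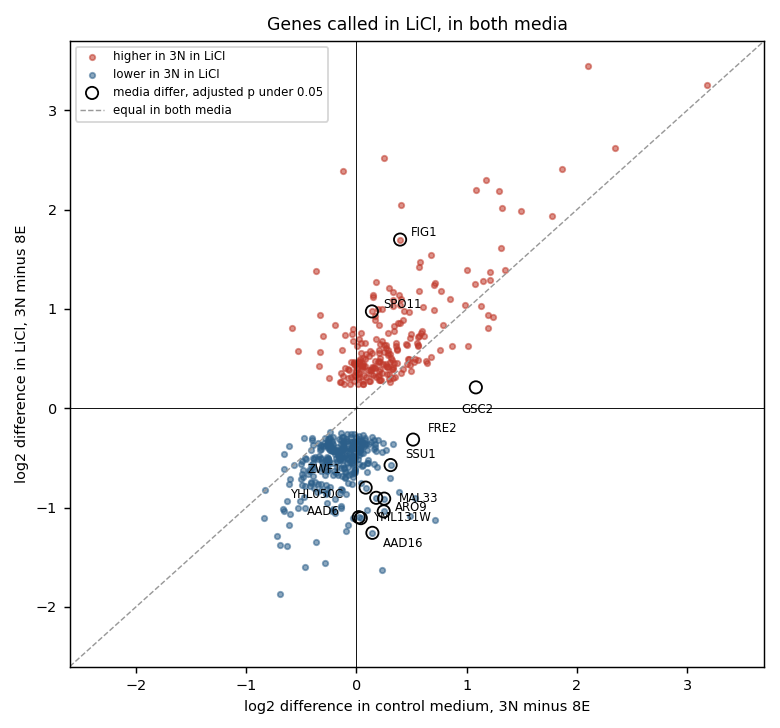
Log2 difference of 3N minus 8E in control medium (horizontal) and in LiCl (vertical) for the 524 genes called in LiCl, with the 12 genes whose difference depended on the medium ringed and named (FRE2 and GSC2 were not called in LiCl). The dashed line marks equal differences. No other gene outside the target list passed that test.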

How the data were processed

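Poly(A) RNA of 18 cultures was sequenced as strand-specific paired-end libraries. Per the labels and the paper, the authors aligned the reads to the yeast genome R64 and counted them per gene with featureCounts, and the deposited table holds raw counts for 7126 genes. The authors also deposited TPM values, which were used in 1 alternative. Whether counting used strand is not given in the sources used here, so overlapping and antisense genes may share reads.

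Counts were fitted with edgeR 4.0.16 (R 4.3.3): genes were filtered by group (6239 kept), scaled by TMM and tested with the robust quasi-likelihood test in 1 model of 18 libraries with group and replicate number, which left 10 residual degrees of freedom. P-values were adjusted by Benjamini-Hochberg over all tested genes, calls required an adjusted p under 0.05, and errors are SE. Differences are log2, 3N minus 8E. P-values measure the spread between cultures named biological triplicates by the study.

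Replicate numbers were kept as a block because the comparison was defined that way. The deviations of same-numbered 3N and 8E libraries correlated at 0.84, 0.58 and 0.54. Libraries 2 and 3 also correlated with each other across groups (0.66 and 0.52), and replicate 1 correlated negatively with both (-0.64 to -0.75). These values set replicate 1 apart, and they do not show that numbers 2 and 3 were each paired across groups.

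Named genes were those outside the target list with a standard name, at least 10 CPM on average and the same sign in 3 pairs: the 14 largest differences in each direction. To these were added, without those conditions, up to 4 members with the smallest p of each list, and HCM1 and URA3. Others named, such as biotin genes, regulators and further list members, were chosen after their values were seen. The members and the 45 gene lists were chosen with earlier results of these data known. Lists were described by counts and medians. All 28 mitochondrially encoded genes of 1 list fell below the filter. Positions and upstream windows came from RefSeq R64, and near-identical stretches from blastn 2.17.0 (at least 95% identity over 100 bases). Alternatives were other scalings, no filter, DESeq2 1.42.0, limma on log2(TPM + 1), fewer libraries and no replicate block. The fit was tested on simulated data. Some members counted in the lists are not reported here by name. Counting intervals and floors cover counting error only. LiCl was used at 150 mM and cultures were collected at 40 h.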

Additional observations from a re-analysis of the deposited data

Results flagged for a closer look

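The 3N to 8E difference depended on the medium for 12 genes outside the target list, by a test of LiCl difference minus control difference with adjusted p between 0.0367 and 0.0454. It was more negative in LiCl for AAD16 (-1.40) and AAD6 (-1.15), aryl-alcohol dehydrogenase entries that may not be separate genes. The difference was likewise more negative for the aromatic transaminase gene ARO9 (-1.29), for MAL33, a maltose activator gene (-1.16), and for the oxidoreductase-like gene YML131W (-1.12). It was also more negative for YHL050C (-1.08), SSU1, a sulfite efflux pump gene (-0.88), ZWF1 (-0.88) and FRE2, a ferric reductase gene (-0.83). GSC2, a glucan synthase gene, was higher in 3N in control medium (1.08) and gave 0.21 in LiCl, a difference of -0.87. It was more positive in LiCl for FIG1 (1.30) and the meiotic gene SPO11 (0.83). MAL33, YML131W, YHL050C and SSU1 were lower in 3N in LiCl by -0.91, -1.10, -0.90 and -0.57. YHL050C is named only by its systematic name in the table.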

How the results depend on the processing

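None of the 524 called genes changed sign in an alternative that tested it, but the excess of lower over higher calls did: upper quartile factors gave 245 higher and 226 lower, the 6 libraries alone 213 and 187, the 9 LiCl libraries 193 and 192, and the fit without replicate 1 453 and 433. Same-numbered replicates were blocked in the fit: with no replicate block 187 genes outside the target list were called in LiCl (66 higher, 121 lower), 4 in control medium and 0 for the difference between media, and all 187 were among the 524. With libraries left out, the LiCl calls ran from 65 to 886 (higher 28 to 453, lower 37 to 433), the control calls from 0 to 698 and the difference between media from 0 to 602. A minimum log2 difference of 0.5 gave 277 (122 higher, 155 lower). On log2(TPM + 1) limma called 838 (128 higher, 710 lower), 137 in control medium and 61 for the media, and the median of all genes shifted by -0.10. DESeq2 called 662 in LiCl, 440 in control medium and 178 for the media. For the media, library totals gave 25, upper quartile factors 0 and the length trend removed 6. The higher share of LiCl calls was 41.8% as reported, 28.3% with library totals, 52.0% with upper quartile factors, 15.3% on TPM and 53.3% with 6 libraries, so the balance of higher and lower calls changed with the scaling and the libraries used. Of the 28 genes with the largest differences, 11 were called in every alternative run, while 9 lost the call without the block, 13 without replicate 2 and 12 without replicate 3. The cause of these changes was not tested.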
